A study of Mus musculus with 12 samples.

Results

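Genes that repair alkylated or oxidised DNA bases and genes of the p53 response were followed in colorectal tissue of mice given azoxymethane (AOM), a carcinogen that alkylates DNA, and dextran sulfate sodium (DSS), which injures the colon lining. The set held 8 genes, chosen by symbol: the repair genes Mgmt, Mpg, Ogg1 and Msh6, the tumour suppressor Trp53, and the p53 targets Mdm2, Cdkn1a and Ccng1. All 8 were found among the 18514 genes of the count table, and all 8 were among the 15484 genes that passed the filter on low counts. RNA of 12 male C57BL/6 mice was sequenced, with 1 library per mouse and 3 mice in each of 4 groups. Ctrl mice received neither agent. Ctrl_Swim mice swam daily without AOM/DSS. Model mice received an injection of AOM followed by repeated cycles of DSS in the drinking water. Model_Swim mice received the same AOM/DSS course and swam, with training begun before the AOM injection. Mice that did not swim were placed in shallow water instead. Tissue was taken at the end of the experiment, after the DSS cycles. The paper reports tumours in both AOM/DSS groups by then, with fewer per mouse in Model_Swim. No group received AOM alone or DSS alone, so the effects of these agents cannot be told apart. The libraries came from whole colorectal tissue, in which fewer cells of a type and less RNA per cell cannot be told apart.

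AOM is metabolised to a species that methylates guanine and adenine. Mgmt removes the methyl group from O6-methylguanine in a single reaction that uses up the protein, Mpg is the glycosylase that cuts out methylated purines, Ogg1 is the glycosylase for oxidised guanine, and Msh6 is a subunit of a complex that recognises mismatches, including those that unrepaired O6-methylguanine makes. DNA damage stabilises the p53 protein, encoded by Trp53, which then raises transcription of Cdkn1a (p21, a brake on the cell cycle), Ccng1 (cyclin G1) and Mdm2, whose product in turn marks p53 for degradation. The p53 protein is regulated mainly after translation, so the Trp53 transcript is not a measure of its activity.

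Libraries held between 17256953 and 19451055 counts. Expression is given as CPM, a gene's reads scaled to the depth of its library with TMM factors, and differences come from edgeR's quasi-likelihood fit of the 4 groups over all genes tested, in which a gene was called at a Benjamini-Hochberg adjusted p under 0.05. The 12 colonic epithelium markers were detected in every library, with a summed level of 12170 to 29710 CPM, lowest in Model 1 and Model 2. The 17 markers of pancreatic acinar cells summed to 53080 CPM in Model 1 and 25870 CPM in Model 3, against 100.1 to 451.6 CPM in the other libraries. The 12 squamous epithelium markers summed to over 500 CPM in 5 libraries, namely Ctrl_Swim 4, Model 1, Model 2, Model_Swim 2 and Model_Swim 3. Markers of fibroblasts were called higher in Model than in Ctrl mice for 7 of 7 genes, against 16.5% of all genes. Those of lymphocytes were higher for 9 of 10, and those of neutrophils and macrophages for 10 of 10. Squamous markers were higher for 10 of 12 and acinar markers for 15 of 16 tested. Of the colonic epithelium markers, 7 of 12 were lower and 0 higher, against 16.2% of all genes lower. Of 8 smooth muscle markers, 0 were called. The part of these other cell types in the results below was not tested except where a value is given.

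Levels per transcript length, in FPKM, spanned a wide range among the 8 genes. Cdkn1a was highest, at 75.9 to 114 FPKM (median 96.6) over the 12 libraries. Trp53 followed at 28.2 to 38.7 (median 32.3) and Ccng1 at 27.3 to 35.7 (median 32.0), and these 2 ranges overlapped. Msh6 lay at 7.69 to 10.9 (median 9.50) and Mpg at 6.96 to 9.94 (median 8.23), again with overlap. Mdm2 lay at 5.04 to 8.06 (median 6.07) and Ogg1 at 4.71 to 6.98 (median 6.03), so that these neighbours did not differ beyond their spread either. The range of Mdm2 also overlapped those of Msh6 and Mpg, and that of Ogg1 just reached that of Mpg. Mgmt was lowest, at 1.38 to 3.19 FPKM (median 1.79), below every library's value of any other gene of the set. With only 44 to 99 counts per library, Mgmt was also the least precisely measured.

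**Figure D1:**
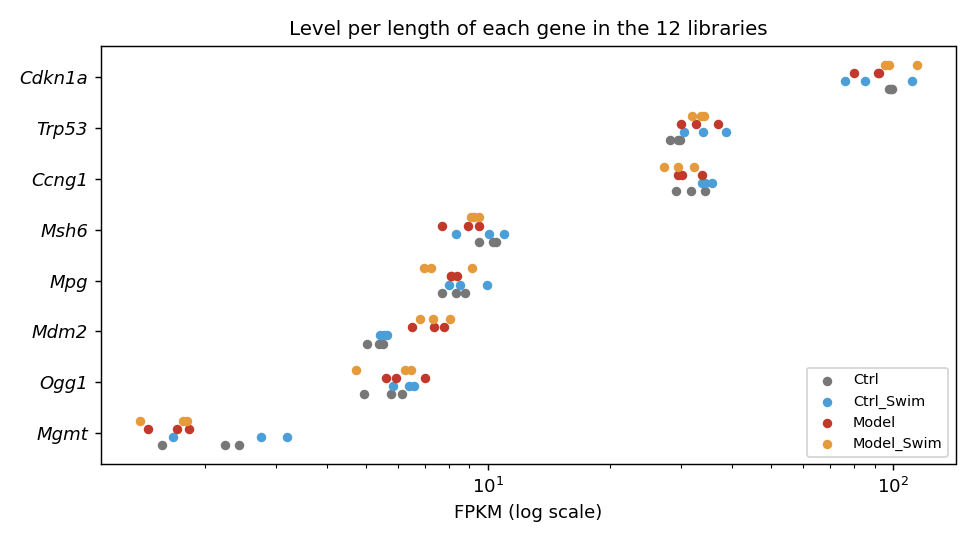
Level per transcript length (FPKM, log axis) of the 8 genes, with 1 point per library coloured by group and genes ordered by their median. Cdkn1a lies above 75.9 FPKM and Mgmt below 3.19 FPKM in all 12 libraries. Trp53 and Ccng1 overlap, and each of Msh6, Mpg, Mdm2 and Ogg1 overlaps its neighbours among these genes.

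Mdm2, the ubiquitin ligase that limits p53, was the member that differed most clearly with AOM/DSS. It was 42.4, 38.7 and 43.0 CPM in the Ctrl mice, 40.7, 39.7 and 37.7 CPM in the Ctrl_Swim mice, 47.1, 55.1 and 53.6 CPM in the Model mice, and 58.9, 52.9 and 49.1 CPM in the Model_Swim mice. All 6 AOM/DSS mice were above all 6 untreated mice. A gap of this kind was found for 12.4% of all genes tested. Between Model (51.9 ± 4.28 CPM, SD, n = 3) and Ctrl (41.4 ± 2.33 CPM, SD, n = 3) the level was 1.25-fold higher (95% interval 1.10 to 1.43; log2 fold change 0.33, SE 0.084, edgeR adjusted p = 0.0135). Between Model_Swim (53.6 ± 4.94 CPM, SD, n = 3) and Ctrl_Swim (39.4 ± 1.53 CPM, SD, n = 3) it was 1.36-fold higher (95% interval 1.20 to 1.55; log2 fold change 0.44, SE 0.084, edgeR adjusted p = 0.0183). Over all AOM/DSS mice against all untreated mice the log2 fold change was 0.39 (SE 0.059, edgeR adjusted p = 0.000973). In swimming mice the call was lost without Ctrl_Swim 3 (edgeR adjusted p = 0.0538), without Model_Swim 1 (0.0564) and without Model_Swim 2 (0.0546), with log2 fold changes of 0.37 to 0.49 over all fits that left out 1 mouse.

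No Model mouse was low in markers of both other tissues. Between Model and Ctrl, Mdm2 could therefore be compared only with 1 of them reduced at a time. Without the acinar-rich Model 1 and Model 3, the Model group was Model 2 alone, the library with the most squamous marker RNA, and the Model vs Ctrl log2 fold change was 0.39 (edgeR adjusted p = 0.0156). Without the 5 squamous-rich libraries it was the acinar-rich Model 3 alone, and the log2 fold change was 0.36 (edgeR adjusted p = 0.0288). In both fits the lone mouse is assumed to vary like the mice of the other groups. With the squamous list as a covariate and all mice kept, the log2 fold change was 0.38 (edgeR adjusted p = 0.0354). Among swimming mice, Model_Swim 1, Ctrl_Swim 2 and Ctrl_Swim 3 were low in markers of both tissues. Their Mdm2 levels were 58.9, 40.7 and 39.7 CPM. Swimming itself gave no call for Mdm2, with log2 fold changes of 0.05 (95% interval -0.14 to 0.23) between Model_Swim and Model and -0.07 (95% interval -0.26 to 0.11) between Ctrl_Swim and Ctrl.

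The region before the Mdm2 start is shown for comparison with the other p53 targets below, with a p53 half-site in capitals. It is the 250 bases upstream of the RefSeq start, chr10:117710759-117711008 on the minus strand of GRCm38.p6.

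Mdm2: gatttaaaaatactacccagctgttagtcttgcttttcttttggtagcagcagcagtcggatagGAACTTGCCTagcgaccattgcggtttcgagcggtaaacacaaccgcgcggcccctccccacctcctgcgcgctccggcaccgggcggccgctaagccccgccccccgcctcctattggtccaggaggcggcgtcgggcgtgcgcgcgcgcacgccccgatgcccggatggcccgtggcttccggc

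The marked half-site begins 186 bases before the start, and half-sites of this kind were found in 8.36% of the 32851 promoter windows of 300 bases (250 before and 50 after each start). The well-studied p53-responsive promoter of Mdm2 lies within the gene, in its first intron, and is not in this window.

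Cdkn1a, the p21 cell cycle inhibitor, did not follow Mdm2. It was 213.7, 212.0 and 213.8 CPM in the Ctrl mice, 232.1, 167.1 and 143.7 CPM in the Ctrl_Swim mice, 160.2, 181.1 and 184.8 CPM in the Model mice, and 194.0, 229.8 and 195.8 CPM in the Model_Swim mice. The 3 Model mice were below the 3 Ctrl mice and also below the 3 Model_Swim mice, whereas the Ctrl_Swim mice covered the whole range, from the lowest to the highest of the 12 libraries. Between Model and Ctrl the log2 fold change was -0.28 (SE 0.15, 95% interval -0.60 to 0.04, edgeR adjusted p = 0.156), and between Model_Swim and Model it was 0.24 (95% interval -0.08 to 0.56, edgeR adjusted p = 0.511). The difference between the effect of swimming with and without AOM/DSS, tested as an interaction, was 0.47 on the log2 scale (SE 0.21, edgeR adjusted p = 0.244). None of these was called, but the interaction and the Model vs Ctrl difference passed without Ctrl_Swim 2, the highest library. The interaction was then 0.66 (edgeR adjusted p = 0.0470), in a fit that called 1.24% of all genes there, against 0% with all mice. The Model vs Ctrl difference was then -0.26 (edgeR adjusted p = 0.0411). Ctrl_Swim 2 is in neither of these groups, and without it the SE was 0.085 rather than 0.15. The Model vs Ctrl difference was also called in a fit of the Model and Ctrl libraries only (-0.27, edgeR adjusted p = 0.0395).

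Ccng1, cyclin G1, was 109.8, 126.5 and 118.4 CPM in the Ctrl mice, 128.5, 116.3 and 110.5 CPM in the Ctrl_Swim mice, 116.9, 99.97 and 104.6 CPM in the Model mice, and 103.2, 112.2 and 94.4 CPM in the Model_Swim mice. Its groups overlapped in every comparison. Over the 6 AOM/DSS mice (105.2 ± 8.16 CPM, SD) against the 6 untreated mice (118.3 ± 7.85 CPM, SD) the log2 fold change was -0.17 (SE 0.064, edgeR adjusted p = 0.0609), which did not pass the test. It passed without Model 1 (edgeR adjusted p = 0.0264), without Model_Swim 2 (0.0484) and without both acinar-rich libraries (0.0242), so that the side of the threshold turned on single mice.

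A promoter window of each of these 2 genes held a full p53 site, and the other Cdkn1a window (start chr17:29093769) held none. A full site means a pair of adjacent half-sites with at most 1 base off the consensus in each and the central C and G kept. This definition was chosen after the sequences had been seen. Such sites were found in 0.204% of all windows, and among the 28 genes of the p53 target list with a window in Cdkn1a, Ccng1 and Gtse1. The 250 bases upstream of the distal Cdkn1a start (chr17:29090729-29090978, plus strand) and of the Ccng1 start (chr11:40755287-40755536, minus strand) are printed below from the RefSeq promoters of GRCm38.p6, with the full site in capitals.

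Cdkn1a: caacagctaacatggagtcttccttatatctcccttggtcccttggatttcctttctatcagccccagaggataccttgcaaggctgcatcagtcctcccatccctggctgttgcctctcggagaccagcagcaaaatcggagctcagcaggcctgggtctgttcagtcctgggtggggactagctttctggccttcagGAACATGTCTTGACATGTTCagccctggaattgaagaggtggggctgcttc
Ccng1: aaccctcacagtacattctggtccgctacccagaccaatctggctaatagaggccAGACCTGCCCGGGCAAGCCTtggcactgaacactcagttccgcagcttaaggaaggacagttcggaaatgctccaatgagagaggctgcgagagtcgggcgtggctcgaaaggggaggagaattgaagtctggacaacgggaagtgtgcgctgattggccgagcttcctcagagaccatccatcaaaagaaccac

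The Cdkn1a site begins 51 bases before the distal start and the Ccng1 site 195 bases before its start. Both members with a full site in this window were called in none of the 6 comparisons, and of Mdm2 and Trp53, with a half-site only, Mdm2 was called in 3 and Trp53 in none. A match of letters is a description and does not show that the protein binds there.

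Trp53 itself was the least variable member. It ranged from 67.7 to 83.0 CPM over the 12 libraries, with a coefficient of variation of 6.51%, and its groups overlapped in every comparison. The log2 fold change was 0.07 (95% interval -0.10 to 0.25) between Model and Ctrl and 0.03 (95% interval -0.10 to 0.15) over all AOM/DSS against all untreated mice, so that a change beyond 1.11-fold in the latter lay outside the interval.

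Msh6, the mismatch recognition subunit, was lower in Model than in Ctrl mice. It was 43.5, 46.1 and 47.6 CPM in the Ctrl mice, 36.3, 45.0 and 39.9 CPM in the Ctrl_Swim mice, 39.9, 36.8 and 32.5 CPM in the Model mice, and 38.6, 40.1 and 38.9 CPM in the Model_Swim mice. The Model and Ctrl mice did not overlap, while the swimming groups did. Model mice differed from Ctrl mice by a log2 fold change of -0.33 (SE 0.091, edgeR adjusted p = 0.0190), a level 0.797 times that of Ctrl (95% interval 0.694 to 0.915). Among swimming mice it was -0.04 (95% interval -0.24 to 0.16), and the interaction was 0.28 (SE 0.13, edgeR adjusted p = 0.259), so the 2 effects were not shown to differ. The Model vs Ctrl call was lost without Ctrl 2 (edgeR adjusted p = 0.0833), Ctrl 3 (0.0980), Model 2 (0.0685) or Model 3 (0.0623), in a fit of these 2 groups only (0.0620) and with the squamous list as a covariate (0.0676). In all AOM/DSS mice together the log2 fold change was -0.19 (SE 0.064, edgeR adjusted p = 0.0455), and this call held in 3 of 23 alternatives, with adjusted p from 0.0244 to 0.205.

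The 250 bases before the Msh6 start (chr17:87974800-87975049, plus strand, RefSeq GRCm38.p6) are shown because, among the repair genes of the set, only Msh6 passed the test. GC boxes (GGGCGG on either strand, overlapping boxes included) are in capitals.

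Msh6: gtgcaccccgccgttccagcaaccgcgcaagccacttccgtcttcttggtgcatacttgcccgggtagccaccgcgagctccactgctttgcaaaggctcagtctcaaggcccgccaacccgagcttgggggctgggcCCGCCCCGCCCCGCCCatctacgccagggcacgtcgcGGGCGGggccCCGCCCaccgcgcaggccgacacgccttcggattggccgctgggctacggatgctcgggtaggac

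These bases held 5 such boxes and no p53 half-site, and at least 1 GC box was found in 35.7% of all promoter windows.

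Mgmt, the direct reversal enzyme for the lesion that AOM makes, was 4.47, 4.03 and 2.86 CPM in the Ctrl mice, 4.82, 5.27 and 2.66 CPM in the Ctrl_Swim mice, 2.90, 2.40 and 3.10 CPM in the Model mice, and 3.08, 2.99 and 2.33 CPM in the Model_Swim mice. Of the untreated mice, 4 were above all 6 AOM/DSS mice, and Ctrl 3 and Ctrl_Swim 4 lay among them. Over the 6 AOM/DSS mice (2.80 ± 0.345 CPM, SD) against the 6 untreated mice (4.02 ± 1.06 CPM, SD) the log2 fold change was -0.52 (SE 0.20, 95% interval -0.95 to -0.08, edgeR adjusted p = 0.0650). This was the largest difference of the set but did not pass the test across all genes. It passed without Ctrl_Swim 4 (-0.63, edgeR adjusted p = 0.0157), and with the squamous list as a covariate it was -0.22 (edgeR adjusted p = 0.554).

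Mpg and Ogg1, the 2 glycosylases, gave no call in any comparison. Mpg ranged from 12.1 CPM in Model_Swim 1 to 17.8 CPM in Ctrl_Swim 2, and its log2 fold change over all AOM/DSS against all untreated mice was -0.15 (95% interval -0.36 to 0.06). Ogg1 ranged from 7.65 CPM in Model_Swim 1 to 11.2 CPM in Model 1, with a log2 fold change of -0.03 (95% interval -0.27 to 0.20). In GENCODE M21, 35.7% of the exon bases of Mpg are shared with Nprl3 on the opposite strand, 10.6% of those of Ogg1 with Camk1, 7.68% of those of Cdkn1a with a small unnamed gene model and 0.782% of those of Msh6 with Fbxo11. The strand setting of the read counting is not given in the sources used here, and without it reads of such partners cannot be told apart.

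**Figure D2:**
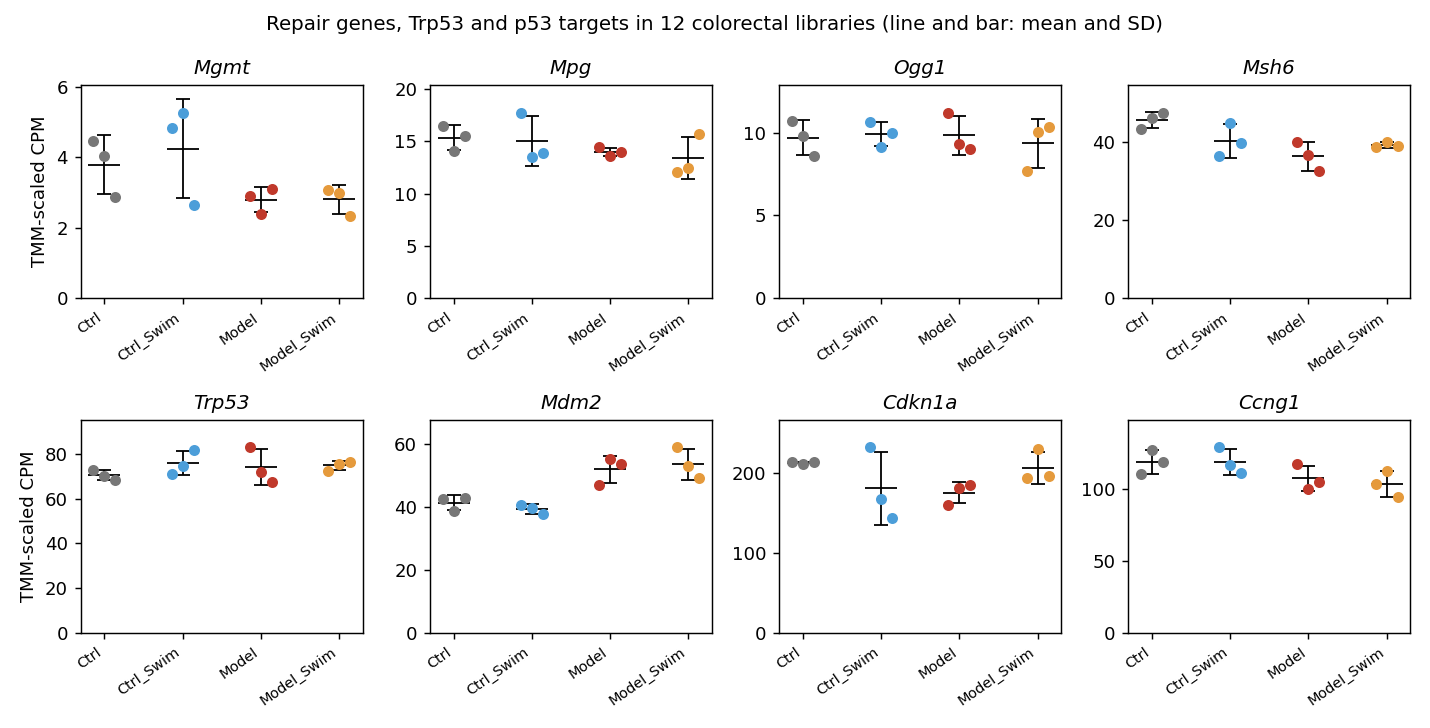
TMM-scaled CPM of each gene in the 4 groups, with 1 point per mouse, a line at the group mean and a bar of 1 SD (n = 3), on axes that start at 0. Mdm2 is the gene in which all 6 AOM/DSS mice lie above all 6 untreated mice, and Cdkn1a in Ctrl_Swim spans 143.7 to 232.1 CPM.

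Over the whole set, the share of members called between Model and Ctrl was not above that of all genes. There 2 of 8 members (25%) were called, against 32.7% of all genes tested, with Mdm2 higher (background 16.5% for higher calls) and Msh6 lower (16.2%). With the study's added cutoff of a fold change over 2 or under 0.5, 0 of 8 passed, against 7.43% of all genes. In 3 of 8 members, Mdm2, Msh6 and Cdkn1a, the 2 groups did not overlap, against 44.2% of all genes. Between Model_Swim and Ctrl_Swim, 1 of 8, Mdm2, was called against 5.18%, and in 1 of 8 the groups did not overlap, against 32.4%. With all AOM/DSS mice set against all untreated mice, 2 of 8 were called against 33.4%.

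Swimming gave no call among the members. Between Model_Swim and Model, 0 of 8 were called by edgeR, 0 had an unadjusted p under 0.05 and 0 were called by DESeq2, against 0.071% of all genes called by edgeR and 13.6% at an unadjusted p under 0.05. The groups did not overlap in 1 member, Cdkn1a, against 16.9% of all genes. Between Ctrl_Swim and Ctrl these counts were also 0, 0 and 0, against 0.969% and 17.6% of all genes. In the interaction, 0 of 8 members were called by edgeR and 0 by DESeq2, with 2, Cdkn1a and Msh6, at an unadjusted p under 0.05, against 19% of all genes, and edgeR called 0% of all genes. DESeq2 called 777 genes of the whole table in the interaction, 361 between Model_Swim and Model and 658 between Ctrl_Swim and Ctrl. The 95% intervals still allowed sizeable differences, up to 1.54-fold for Mgmt and 1.47-fold for Cdkn1a between Model_Swim and Model.

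**Figure D3:**
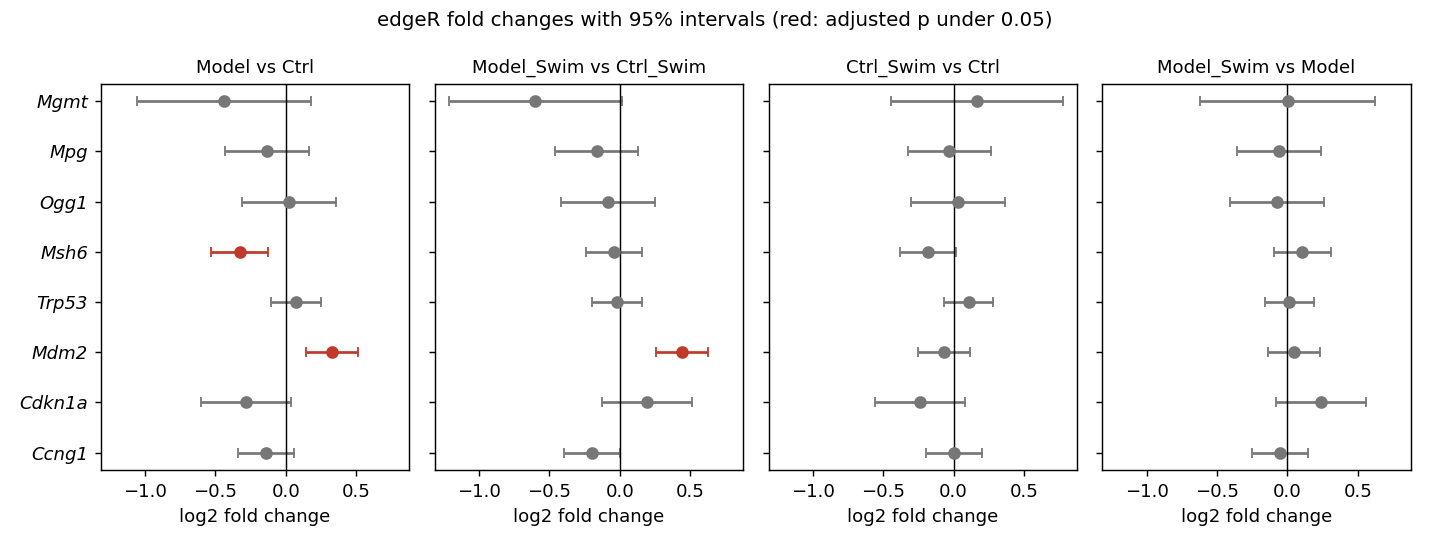
Log2 fold change of each gene with its 95% interval from edgeR in 4 comparisons, with genes at an adjusted p under 0.05 in red. Mdm2 is red in both comparisons of AOM/DSS mice with untreated mice (0.33 and 0.44), Msh6 is red between Model and Ctrl (-0.33), and no gene is red in either comparison of swimming with non-swimming mice.

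The wider lists of the same pathways place these members among their neighbours. Of 36 p53 targets, all tested, 10 were higher and 2 lower in Model than in Ctrl mice, against 16.5% and 16.2% of all genes, so that 27.8% of the list was higher. The median log2 fold change was 0.17, against 0.0055 over all genes tested. Higher were Pmaip1 (Noxa, which promotes cell death; 24.5 ± 7.23 against 12.7 ± 0.948 CPM, SD, n = 3 each; log2 fold change 0.95), Phlda3 (an inhibitor of Akt; 0.95), Ddit4 (a brake on mTORC1 that stress also induces; 0.88) and Apaf1 (the core of the apoptosome; 0.70). Lower were Aen, a nuclease of apoptosis (-0.36), and Ei24 (-0.27). The edgeR adjusted p was 0.00446 for Pmaip1, 0.00445 for Phlda3, 0.00842 for Ddit4 and 0.00638 for Apaf1. The 12 calls in the list (33.3%, against 32.7% of all genes) numbered 5 with the squamous list as a covariate, when 16.6% of all genes were called, and 7 without the 5 squamous-rich libraries, which left Model 3 as the lone Model mouse, when 21.9% of all genes were called.

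Among swimming mice, 5 of the 36 p53 targets were higher with AOM/DSS and 0 lower, against 3.49% and 1.69% of all genes. They included Plk3, a stress-responsive kinase (23.7 ± 3.39 against 10.9 ± 2.48 CPM, SD, n = 3 each; log2 fold change 1.13, edgeR adjusted p = 0.0289), and Pmaip1 (0.74, edgeR adjusted p = 0.0499). This count was 10 by DESeq2, and it was 0 without Ctrl_Swim 3, without Model_Swim 1 or without Model_Swim 2. Calls over all genes moved likewise, from 802 by edgeR to 1562 by DESeq2, and from 5.18% to 1.44%, 1.58% and 1.19% of genes without these mice. Over all AOM/DSS against all untreated mice, 13 of 36 were higher and 2 lower, against 17% and 16.5% of all genes. Between Model_Swim and Model 0 of 36 were called by edgeR or by DESeq2, and 8 had an unadjusted p under 0.05, against 13.6% of all genes. Without Model 3 the count was 3, when 5.62% of all genes were called. Between Ctrl_Swim and Ctrl 0 of 36 were called by edgeR and 3 by DESeq2, with 4 at an unadjusted p under 0.05, against 17.6% of all genes.

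Of 15 genes that encode p53, its relatives and its regulators, 4 were higher (26.7%) and 0 lower in Model than in Ctrl mice, against 16.5% and 16.2% of all genes. Mdm4, the partner of Mdm2 that restrains p53, was 146.7 ± 24.7 against 95.4 ± 8.67 CPM (SD, n = 3 each; log2 fold change 0.62, edgeR adjusted p = 0.00359). Trp53bp1, which acts at DNA breaks, was higher by 0.30 (edgeR adjusted p = 0.0229). Mdm2 was the third. The fourth was Trp63, which is also one of the squamous markers and ranged from 0.0574 to 30.8 CPM among the Model mice; it fell outside the rule for named genes and is named because the count is small. With the squamous list as a covariate and all mice kept, 2 of the 15 genes were called, when 16.6% of all genes were called.

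Of 26 genes of alkylation and base excision repair, 2 were higher and 4 lower in Model than in Ctrl mice, which is 7.69% and 15.4% of the list against 16.5% and 16.2% of all genes. Mbd4, a glycosylase for mismatched thymine, was higher (log2 fold change 0.74, edgeR adjusted p = 0.0288), as was Neil1, a glycosylase for oxidised bases (0.48, edgeR adjusted p = 0.00887). Ung, which removes uracil, was 11.9 ± 2.55 against 20.1 ± 2.08 CPM (SD, n = 3 each; log2 fold change -0.75, edgeR adjusted p = 0.00442). The other lower genes were Lig1 (-0.38), a DNA ligase, Fen1 (-0.37), a flap endonuclease, and Tdg (-0.26), a thymine glycosylase. Ung, Lig1 and Fen1 also serve DNA replication. Lig1 was lower in Ctrl_Swim than in Ctrl mice as well (-0.37, edgeR adjusted p = 0.0383), in a comparison in which 0.801% of all genes were lower. That call was lost without any 1 of the Ctrl, Ctrl_Swim or Model_Swim mice, with no filter, with limma and with the squamous covariate. With all AOM/DSS mice in 1 group, 4 of 26 were lower, against 16.5% of all genes, including Ung (-0.54, edgeR adjusted p = 0.00351) and Alkbh2, which reverses alkylation of bases directly (3.73 ± 0.584 against 5.10 ± 0.480 CPM, SD, n = 6 each; -0.45, edgeR adjusted p = 0.0272). In both genes the 6 AOM/DSS mice were below the 6 untreated mice, as in 12.4% of all genes in either direction.

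Of 8 mismatch repair genes Msh6 alone was called between Model and Ctrl (12.5% lower, against 16.2% of all genes). Over all AOM/DSS against all untreated mice, 3 of 8 were lower (37.5%), against 16.5% of all genes. That count was 1 by DESeq2 and 0 to 4 with 1 mouse left out. Of 16 proliferation genes, 6 were lower (37.5%) in Model than in Ctrl mice and 0 higher, against 16.2% and 16.5% of all genes, with a median log2 fold change of -0.24. The count was 1 without Ctrl 2, when 20.1% of all genes were called. It was also 1 with limma on FPKM (24.1% to 33.3%), and 2 with the squamous list as a covariate (16.6%). Between Ctrl_Swim and Ctrl, mice without AOM/DSS, the median was -0.34, with 1 of 16 called and 12 of 16 at an unadjusted p under 0.05, against 17.6% of all genes. The 6 genes included the replication helicase subunits Mcm6 (-0.44), Mcm5 (-0.40) and Mcm2 (-0.38) and the sliding clamp Pcna (-0.29). In the FPKM values, which lack TMM scaling, 66.5% of all calls between Model and Ctrl were higher in Model, against 50.6% in the counts, and 44.7% against 67.3% between Model_Swim and Ctrl_Swim. On that scale the call of Msh6 was lost (limma adjusted p = 0.140), while Mdm2 was called (log2 fold change 0.38, limma adjusted p = 0.00520).

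**Figure D4:**
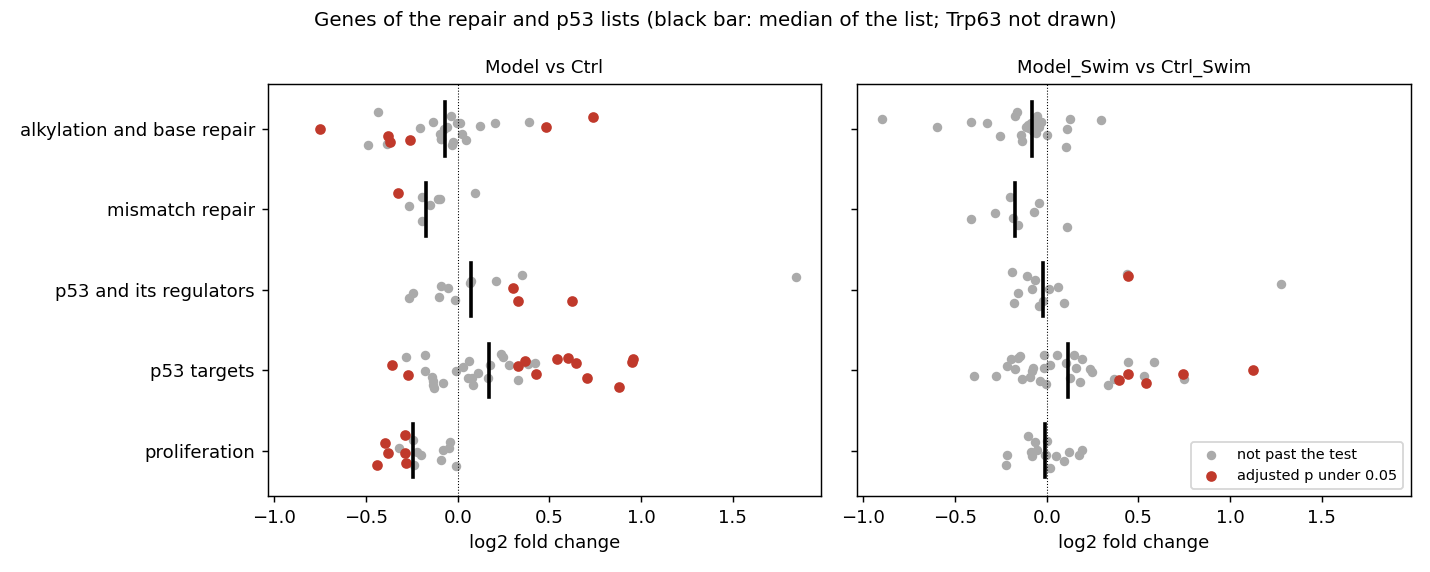
Log2 fold change of the genes of 5 pathway lists between Model and Ctrl and between Model_Swim and Ctrl_Swim, with genes at an edgeR adjusted p under 0.05 in red and a black bar at the median of each list; Trp63 is counted in its list's median but not drawn. The p53 targets have a median of 0.17 and proliferation a median of -0.24 between Model and Ctrl, against 0.12 and -0.0096 in swimming mice.

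The genes whose levels over the 12 libraries were most like those of a member were found by the Pearson correlation of log2 CPM among tested genes with a mean of at least 5 CPM. For Mdm2 they were Slc38a2 (r = 0.965), Zfp646 (0.962) and Sqstm1 (0.953), and for Cdkn1a they were Acad11 (0.933), Mcur1 (0.930) and Kif16b (0.908). The nearest gene was Dpp8 for Mgmt (0.954), Ccng1 had Morf4l1b (0.926), Msh6 had Ubr7 (0.924), Trp53 had Map3k6 (0.884), Ogg1 had Ptrhd1 (0.860) and Mpg had Trit1 (0.849). These are the highest of 11784 or 11785 correlations over points that share libraries and scaling, and for Mdm2 they follow the split between AOM/DSS and untreated mice. Among the members, Cdkn1a and Ccng1 had r = 0.254 over the 12 libraries, Cdkn1a and Trp53 had r = -0.622, and Mpg and Ogg1 had r = 0.545.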

How the data were processed

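TruSeq Stranded mRNA libraries were sequenced. The authors used Trimmomatic for trimming, HISAT2 for alignment (genome build GRCm38.p6) and HTSeq-count for counting. The deposited raw counts cover 18514 gene symbols, as do the deposited FPKM values, which the authors made with Cufflinks. Versions, annotation release and strand setting are not given in the sources used here. The labels name a mirVana kit for RNA extraction and the methods name TRIzol. Within each member, FPKM was proportional to its share of the library's counts.

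Groups follow the sample titles, with the libraries titled Swim as Model_Swim. In R 4.3.3, counts were scaled by TMM, filtered by filterByExpr (minimum count 10) and fitted with edgeR 4.0.16 in 1 quasi-likelihood model of the 4 groups, with Benjamini-Hochberg adjustment over all 15484 genes tested. AOM/DSS was tested without swimming (Model vs Ctrl), with swimming (Model_Swim vs Ctrl_Swim) and over all mice, swimming was tested with AOM/DSS (Model_Swim vs Model) and without it (Ctrl_Swim vs Ctrl), and their interaction was tested as well. These comparisons share mice. Standard errors are the absolute log2 fold change divided by the root of the F statistic. The code was tested on simulated data.

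The members and lists were chosen with earlier results of these data known. Besides the members, the genes named are, for each pathway list, up to 4 in each direction between Model and Ctrl and up to 2 in the other comparisons, with the largest log2 fold change among those called, with a mean of at least 1 CPM and no overlap between groups. Alternatives were DESeq2 1.42.0 and its size factors, no filter, only the groups compared and a replicate block. Others left out acinar genes, acinar-rich libraries or each mouse in turn, or used the fold cutoff. In addition, limma 3.58.1 was run on log2(FPKM + 1) and log2(FPKM + 0.1) for genes with a mean of at least 0.5 FPKM. On log2(FPKM + 1) it was also run without that minimum. The squamous covariate and the leaving out of libraries with over 500 CPM of squamous markers were added after seeing the data. Windows and positions came from RefSeq GRCm38.p6 (8 of 8 members matched) and exon overlaps from GENCODE M21.

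Same-numbered libraries did not deviate together, so numbers were not taken as pairs. The calls of the mismatch repair list over all AOM/DSS mice are given as counts, and its other genes are not reported here.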

Additional observations from a re-analysis of the deposited data

How the results depend on the processing

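With 3 mice a group, 17 of 48 values (8 genes in 6 comparisons) kept their direction and their side of the threshold. This held under every alternative other than the fold cutoff, which is counted apart. Mdm2 kept its call under all 24 other alternatives between Model and Ctrl (edgeR, DESeq2 or limma adjusted p from 0.00366 to 0.0402). Over all AOM/DSS mice it kept its call under all 23. With the fold cutoff no member was called in any comparison. Depth limits Mgmt most, at 44 to 99 counts. Same-numbered libraries were not paired by any label. Over 15 same-number pairs the correlation of deviations had a median of 0.0046 (range -0.261 to 0.564), 4 were over 0.1, and 3 of 12 libraries correlated best with their own number. With a replicate block, Mdm2 in swimming mice had an adjusted p of 0.144 (log2 fold change 0.41) and Msh6 between Model and Ctrl 0.0509, while Mgmt over all AOM/DSS mice passed (-0.68, 0.0247). Leaving out the acinar-rich libraries leaves Model 2 as the lone Model mouse, and leaving out the squamous-rich ones leaves 1 Model and 1 Model_Swim mouse, assumed to vary like the other groups. The cause of each change below was not tested. The share of all genes called (first value: the fit used above) moved too. Between Model and Ctrl it was 32.7%, 27.9% with the block, 32.6% with limma on log2(FPKM + 1) and 16.6% with the squamous covariate. Over all AOM/DSS mice it was 33.4%, 30.5% with DESeq2, 28.3% with the block and 17% with the covariate. In swimming mice it was 5.18%, 8.49% with DESeq2 and 0.258% with the block. Between Ctrl_Swim and Ctrl it was 0.969%, 3.58% with DESeq2 and 0.00646% with the block.

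Members called between Model and Ctrl (2) numbered 1 with the replicate block, the 3 limma fits on FPKM and the squamous covariate, 0 with the fold cutoff, and 1 to 3 with 1 mouse left out. In swimming mice (1) they numbered 0 with the block or the fold cutoff and 0 to 1 with 1 mouse left out. In the interaction (0) they numbered 0 to 1 with 1 mouse left out. Over all AOM/DSS mice (2) they numbered 1 with DESeq2 or its size factors, no filter, limma, the squamous covariate or squamous-rich libraries left out, 0 with the fold cutoff and 1 to 3 with 1 mouse left out.

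For Model vs Ctrl, base repair (6) gave 3 with the squamous covariate, 0 with the fold cutoff and 3 to 7 with 1 mouse left out. Mismatch repair (1) gave 0 with only the groups compared, the block, limma, the covariate or the fold cutoff, 3 without the acinar-rich and 2 without the squamous-rich libraries, and 0 to 2 with 1 mouse left out. The p53 regulators (4) gave 2 with only the groups compared and with either squamous alternative, 1 with the fold cutoff and 2 to 6 with 1 mouse left out. The p53 targets (12) gave 7 without squamous-rich libraries, 5 with the covariate and 0 with the fold cutoff. Proliferation (6) gave 2 with only the groups compared, 1 with limma, 2 with the covariate, 0 with the fold cutoff and 1 to 8 with 1 mouse left out.

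Over all AOM/DSS mice, base repair (4) gave 0 with the fold cutoff and 2 to 6 with 1 mouse left out. Mismatch repair (3) gave 1 with DESeq2, no filter, filtered limma and both squamous alternatives, 0 with the block, unfiltered limma and the fold cutoff, and 0 to 4 with 1 mouse left out. The p53 regulators (4) gave 2 with limma, without squamous-rich libraries and with the fold cutoff, 1 with the covariate and 1 to 5 with 1 mouse left out. The p53 targets (15) gave 8 with the covariate and 0 with the fold cutoff. Proliferation (4) gave 2 with limma, 7 without acinar-rich libraries, 1 with the covariate, 0 with the fold cutoff and 2 to 7 with 1 mouse left out.

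In swimming mice, the p53 targets (5) gave 10 with DESeq2 and without acinar-rich libraries, 0 with the block, 3 with either squamous alternative, 1 with the fold cutoff and 0 to 7 with 1 mouse left out. The p53 regulators (1) gave 0 with the block and the fold cutoff and 0 to 1 with 1 mouse left out. Mismatch repair and proliferation (0 each) gave 1 each without acinar-rich libraries, and mismatch repair gave 0 to 1 with 1 mouse left out. Between Ctrl_Swim and Ctrl, base repair (1) gave 2 with DESeq2, 0 with no filter, the block, limma, the covariate and the fold cutoff, and 0 to 1 with 1 mouse left out. The p53 targets (0) gave 3 with DESeq2, 2 without acinar-rich libraries and 0 to 1 with 1 mouse left out. Proliferation (1) gave 4 with DESeq2, 2 without acinar-rich and 8 without squamous-rich libraries. It gave 0 with DESeq2 size factors, no filter, the block, limma, the covariate and the fold cutoff, and 0 to 4 with 1 mouse left out. In this comparison 3.79% of all genes were called without acinar-rich libraries and 1.87% without squamous-rich libraries. Between Model_Swim and Model, base repair and p53 regulators (0 each) gave 0 to 1 with 1 mouse left out, and p53 targets (0) gave 0 to 3. Of all genes, 0.071% were called with all mice. With 1 mouse left out, 0.0382% (without Model_Swim 2) to 5.62% (without Model 3) were called. For this comparison no count is given without acinar-rich libraries, since Model 2 is then the lone Model mouse.

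Values that took the other sign, all of them not called, were these log2 fold changes. For Model vs Ctrl, Ogg1 (0.022) was -0.078 with no acinar-rich libraries, -0.12 with no squamous-rich libraries, -0.12 with the squamous covariate and -0.069 to 0.12 with 1 mouse left out. Trp53 (0.074) was -0.069 with no squamous-rich libraries, -0.027 with the squamous covariate and -0.00084 to 0.15 with 1 mouse left out. For Model_Swim vs Model, Mgmt (0.0025) was -0.0064 with the block, -0.0077 with limma with + 1, -0.013 with limma with + 0.1, -0.0064 with no squamous-rich libraries and -0.11 to 0.10 with 1 mouse left out. Ogg1 (-0.074) was 0.023 with no acinar-rich libraries and -0.17 to 0.039 with 1 mouse left out. Trp53 (0.014) was -0.0012 with the squamous covariate and -0.041 to 0.097 with 1 mouse left out. Mdm2 (0.046) was -0.024 with no acinar-rich libraries and -0.036 to 0.091 with 1 mouse left out. Ccng1 (-0.053) was 0.063 with no acinar-rich libraries and -0.13 to 0.0088 with 1 mouse left out. For Ctrl_Swim vs Ctrl, Mgmt (0.16) was -0.0078 to 0.42 with 1 mouse left out. Mpg (-0.030) was 0.029 with the block, 0.080 with limma with + 1, 0.088 with limma with + 0.1, 0.023 with no squamous-rich libraries and -0.14 to 0.055 with 1 mouse left out. Ogg1 (0.032) was -0.057 with the squamous covariate and -0.034 to 0.12 with 1 mouse left out. Mdm2 (-0.071) was 0.048 with limma with + 1 and 0.056 with limma with + 0.1. Ccng1 (0.0024) was -0.038 to 0.068 with 1 mouse left out. For Model_Swim vs Ctrl_Swim, Ogg1 (-0.084) was -0.17 to 0.036 with 1 mouse left out. Msh6 (-0.043) was -0.13 to 0.033 with 1 mouse left out. Trp53 (-0.020) was 0.011 with the block and -0.079 to 0.037 with 1 mouse left out. Cdkn1a (0.19) was -0.047 with no squamous-rich libraries. In the interaction of swimming with AOM/DSS, Mgmt (-0.16) was 0.072 with no acinar-rich libraries. Mpg (-0.032) was 0.020 with no acinar-rich libraries and -0.19 to 0.069 with 1 mouse left out. Trp53 (-0.093) was 0.056 with no squamous-rich libraries. Mdm2 (0.12) was -0.020 with limma with + 1 and -0.025 with limma with + 0.1. Ccng1 (-0.056) was 0.054 with no acinar-rich libraries. For AOM/DSS mice vs untreated mice, Ogg1 (-0.031) was 0.0065 with limma with + 1, 0.0068 with limma with + 0.1 and -0.080 to 0.040 with 1 mouse left out. Trp53 (0.027) was -0.011 with no acinar-rich libraries, -0.041 with no squamous-rich libraries, -0.050 with the squamous covariate and -0.014 to 0.066 with 1 mouse left out. Cdkn1a (-0.045) was 0.0097 with limma with + 1, 0.0098 with limma with + 0.1 and -0.11 to 0.068 with 1 mouse left out.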
